A study of Caenorhabditis elegans with 18 samples.

Results

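The C-type lectin genes of Caenorhabditis elegans were followed in worms with a loss-of-function allele of lin-35 and in the wild type. Members were taken by name: every gene whose symbol in the array's annotation begins with clec- and that has a probe set of its own, 220 of the 17118 genes measured. The genes were picked by name alone, but the family was chosen with earlier results of these data known. Of 254 probe sets with such a symbol, 236 name 1 gene, and a gene with several probe sets is represented by the one with the highest mean over all arrays. The RefSeq table of assembly WBcel235 holds 264 clec genes, so the array covers most of the family, and 18 of the 220 are annotated there as pseudogenes.

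C-type lectin-like domain proteins carry a fold that in many animals binds carbohydrates, and the worm genome holds a greatly expanded set of them, many predicted to be secreted. Several are switched on in the intestine when worms eat pathogenic bacteria, in part through the PMK-1 p38 MAP kinase pathway, and a few have been shown to affect survival on a pathogen. A smaller number are made in the germ line and embryo and are found at the eggshell and early extracellular matrix. The worm counterpart of the retinoblastoma protein, encoded by lin-35, represses transcription together with E2F and DP proteins.

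RNA from whole worms was hybridised to Affymetrix arrays in 6 groups of 3: lin-35(n745) embryos, L1 larvae and L4 larvae, and N2 embryos, L1 larvae and L4 larvae. N2 is the laboratory wild type, n745 is the lin-35 allele, and both strains were fed the non-pathogenic Escherichia coli OP50 at 20 °C. Per the design text, the 3 samples of a group came from animals grown and isolated independently. The mutation is in every cell of the animal, and whole worms were used, so fewer cells of a type and less RNA per cell cannot be told apart.

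The deposited values were made with RMA and are read here as log2 signal, so a difference of 1 is 2-fold. A level is comparable between arrays for the same probe set, not between genes. Differences are lin-35(n745) minus N2, or the later stage minus the earlier, given ± SE with n = 3 arrays per group. A gene is called when limma's Benjamini-Hochberg adjusted p, taken over all 22548 probe sets of a contrast, is under 0.05. The lin-35 probe set itself separated the strains: its highest mutant value was 8.22 in embryos, 6.95 at L1 and 6.49 at L4, against lowest N2 values of 9.07, 7.82 and 7.60. Stage markers followed the labels. The mean of 6 embryo patterning genes ran from 7.08 to 7.21 in lin-35(n745) embryos and from 7.12 to 7.42 in N2 embryos, against at most 6.31 on any larval array, and that of 7 sperm genes was at least 10.16 on every L4 array and at most 5.99 elsewhere. Many C-type lectin probe sets were dim: 172 of 220 lay under the median of all probe sets (6.32), and 135 averaged under 5, where RMA gives no means of telling a low level from background.

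The comparison of the strains at each stage asks which of these genes differ in level between lin-35(n745) and N2. The share of C-type lectin genes called exceeded that of the array most at L4. There, 36 of 220 C-type lectin genes were higher in lin-35(n745) (16.4%, against 7.77% of all probe sets) and 17 were lower (7.73%, against 7.48%). In embryos 14 were higher (6.36%, against 5.92%) and 4 lower (1.82%, against 3.78%), and at L1 14 were higher (6.36%, against 8.24%) and 12 lower (5.45%, against 6.94%). Over all 220 genes, the shares called in embryos and at L1 were near or under those of the array as a whole. With each array centred on its median, 13 were higher in embryos (5.91%, against 5.50% of all probe sets) and 7 lower (3.18%, against 4.90%). At L1 centring gave 14 higher (6.36%, against 6.96%) and 22 lower (10%, against 10.2%), and at L4 it gave 32 higher (14.5%, against 7.05%) and 22 lower (10%, against 9.35%). The lower count was 10 at L4 without lin-35(n745) replicate 2 or without N2 replicate 2, and 7 in embryos without N2 replicate 2. Among the called genes, 18 were higher at L4 by at least 2-fold (8.18%, against 1.85% of all probe sets) and 3 lower (1.36%, against 0.67%). In embryos 8 were higher by that much (3.64%, against 1.41%) and 1 lower (0.455%, against 0.151%), and at L1 7 were higher (3.18%, against 2%) and 2 lower (0.909%, against 1.04%). The family did not shift as a block: its median difference was -0.045 in embryos, -0.11 at L1 and -0.022 at L4, beside -0.034, -0.037 and -0.032 over all probe sets. Across the stages, 68 of the 220 genes were called at 1 or more (30.9%, against 29.3% of all probe sets) and 152 at none. Of the 36 genes higher at L4, 31 were among the 85 that averaged 5 or more, a level class in which 10.4% of all probe sets were higher, and 5 among the 135 dimmer ones, where 2.53% were. Of the same 85 genes, 14 were higher and 3 lower in embryos, beside 7.98% and 4.39% of all probe sets of that class. At L1 12 of the 85 were higher and 10 lower, beside 10.9% and 9.3%. Among the 135 dimmer ones, 0 were higher and 1 lower in embryos, beside 1.79% and 2.57% of all probe sets of that class. At L1 2 of them were higher and 2 lower, beside 2.82% and 2.2%.

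**Figure D1:**
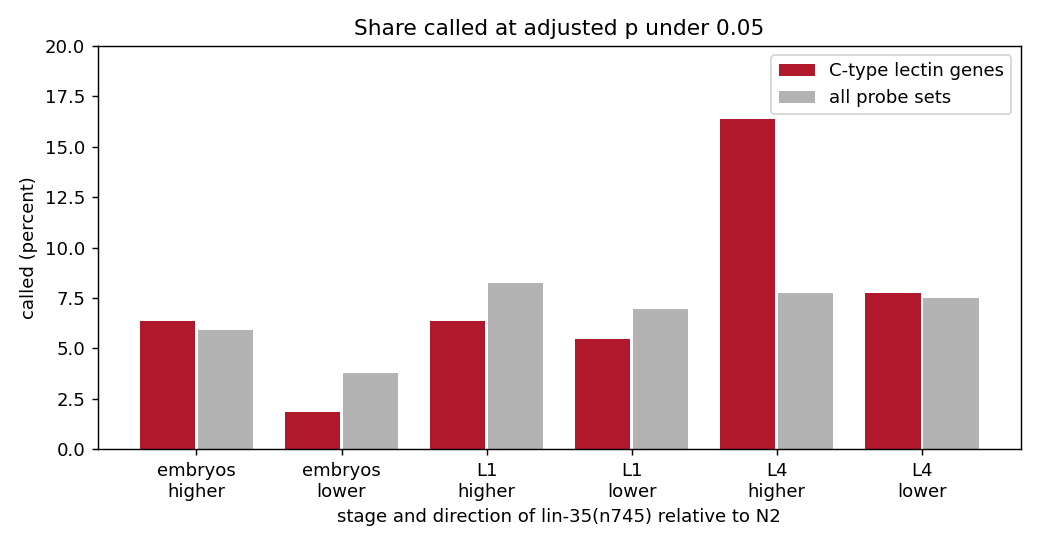
Percent of the 220 C-type lectin genes (red) and of all 22548 probe sets (grey) called higher or lower in lin-35(n745) than in N2 at each stage. The red bar for genes higher at L4 reaches 16.4% beside a grey bar of 7.77%, and in the other pairs the bars are closer together.

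The largest increases belonged to clec-60, clec-61 and clec-174. Their strain difference in embryos was within the spread of the arrays, and they were higher at L1 and again at L4. In embryos clec-60 and clec-61 were under 5 on every array, so a strain difference there could be missed. clec-60 encodes an intestinal lectin that is induced by Staphylococcus aureus and Microbacterium nematophilum. At L1 its log2 signal was 10.14, 9.85 and 8.92 in lin-35(n745), against 6.83, 6.40 and 6.64 in N2, a difference of 3.01 ± 0.25 (adjusted p = 2.51e-08, limma). At L4 it was 10.96, 10.77 and 11.05 in lin-35(n745), against 6.97, 6.80 and 7.10 in N2, a difference of 3.97 ± 0.25, or 15.7-fold (adjusted p = 5.04e-10). Every larval array of the mutant lay above every larval array of N2. In embryos the arrays overlapped, at 4.49, 4.56 and 4.55 in lin-35(n745) and 4.96, 4.73 and 3.82 in N2 (0.03 ± 0.25, adjusted p = 0.97).

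clec-61, a close neighbour of clec-60 on chromosome II, gave nearly the same profile. Its signal was 8.38, 8.46 and 8.70 in lin-35(n745) L1 larvae, against 5.99, 5.62 and 5.91 in N2 L1 larvae (2.67 ± 0.13, adjusted p = 8.20e-12). In L4 larvae it was 9.31, 9.02 and 9.26 in lin-35(n745), against 5.17, 4.97 and 5.54 in N2 (3.98 ± 0.13, adjusted p = 4.80e-14), while in embryos all 6 arrays lay between 3.90 and 4.07. For clec-174 on chromosome IV the L1 values were 8.62, 8.99 and 9.97 in lin-35(n745), against 6.66, 6.52 and 6.296 in N2 (2.70 ± 0.31, adjusted p = 2.31e-06). Its L4 values were 11.20, 11.74 and 11.53 in lin-35(n745), against 7.82, 7.90 and 7.60 in N2 (3.72 ± 0.31, adjusted p = 2.66e-08). The strains did not overlap at either larval stage for any of these 3 genes. For each of them the strain difference itself was larger at L1 than in embryos and larger at L4 than in embryos by the interaction test. With embryo arrays that dim, the size of this change is not exact for clec-60 and clec-61. The probe sets of clec-61 and clec-174 belong to the array's _s_at and _x_at classes, which can read related transcripts. So do those of clec-17, clec-41, clec-62, clec-49, clec-5, clec-8, clec-65, clec-78, clec-87 and clec-88. The second probe sets of clec-10 and clec-65, cited below, are of the _s_at class as well. In all, 29 members have an _s_at and 2 an _x_at probe set.

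The genes outside the family with the pattern most like clec-60 over the 6 group means were C34H4.1 (Pearson r = 0.996), fbxa-166 (0.993), zip-6 (0.992), clc-23 (0.991) and asp-17 (0.989). These are descriptions over 6 points that share arrays with clec-60, and they were chosen for their likeness. zip-6 encodes a bZIP transcription factor, asp-17 an aspartyl protease and clc-23 a claudin-like protein.

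Higher levels at all 3 stages were found for 6 genes (2.73%, against 1.68% of all probe sets): clec-17, clec-41, clec-42, clec-62, clec-66 and clec-67. The L1 calls of clec-41 and clec-66 and the embryo call of clec-66 were lost under some settings. Lower levels at all 3 were found for 0 (0.288% of all probe sets). By a second probe set, not used in these counts, clec-10 was also higher in embryos (0.83), at L1 (0.86) and at L4 (1.93). The same held for the second probe set of clec-65 (0.74, 0.46 and 0.60). clec-17, a gene of the response to Microbacterium nematophilum, had embryo values of 9.78, 9.76 and 9.65 in lin-35(n745), against 8.48, 9.15 and 7.77 in N2 (1.27 ± 0.20, adjusted p = 0.000207). At L1 it had 9.70, 9.67 and 9.65 in lin-35(n745), against 8.09, 7.84 and 7.90 in N2 (1.73 ± 0.20, adjusted p = 2.31e-06). At L4 it had 8.79, 8.72 and 8.77 in lin-35(n745), against 6.01, 5.79 and 5.84 in N2 (2.88 ± 0.20, adjusted p = 1.51e-09). The strains never overlapped, and in embryos the SD was 0.07 in lin-35(n745) and 0.69 in N2, the most variable of these groups.

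clec-42, studied with clec-4 and clec-41 in defence against Bacillus thuringiensis, had embryo values of 7.29, 7.09 and 7.03 in lin-35(n745), against 5.76, 5.75 and 5.63 in N2 (1.43 ± 0.13, adjusted p = 1.08e-07). Its L1 values were 9.83, 9.43 and 10.03 in lin-35(n745), against 8.69, 8.41 and 8.46 in N2 (1.24 ± 0.13, adjusted p = 3.83e-07). In L4 larvae it was measured at 8.94, 8.96 and 8.75 in lin-35(n745), against 6.46, 6.38 and 6.41 in N2 (2.47 ± 0.13, adjusted p = 2.53e-11). All 3 stages separated the strains. clec-41 was higher by 1.24 ± 0.13 in embryos, 0.56 ± 0.13 at L1 and 0.77 ± 0.13 at L4, and clec-4, the remaining gene of that defence group, was not called at any stage (0.19 ± 0.23, -0.36 ± 0.23 and -0.08 ± 0.23). With the L1 arrays fitted alone, clec-41 was not called at L1 (0.56 ± 0.17, adjusted p = 0.0924). clec-67, a target of the PMK-1 p38 pathway and a common reporter of it, differed by 0.70 ± 0.13 in embryos (adjusted p = 0.00102), 1.80 ± 0.13 at L1 (adjusted p = 1.73e-09) and 2.13 ± 0.13 at L4 (adjusted p = 1.97e-10). Its L4 values were 9.85, 9.66 and 9.76 in lin-35(n745), against 7.55, 7.78 and 7.56 in N2. clec-62 was higher by 1.46 ± 0.13 in embryos, 0.98 ± 0.13 at L1 and 1.64 ± 0.13 at L4. clec-66 had the smallest differences of the 6, at 0.44 ± 0.14 (adjusted p = 0.0497), 0.51 ± 0.14 and 1.06 ± 0.14, and its embryo call was lost under several settings, for example to an adjusted p of 0.0758 with the embryo arrays fitted alone. Without N2 embryo replicate 3 its embryo difference was 0.29. Its L1 call was lost with the L1 arrays fitted alone (adjusted p = 0.0809), without lin-35(n745) L1 replicate 1 (0.0917) and without N2 L1 replicate 3 (0.0682).

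**Figure D2:**
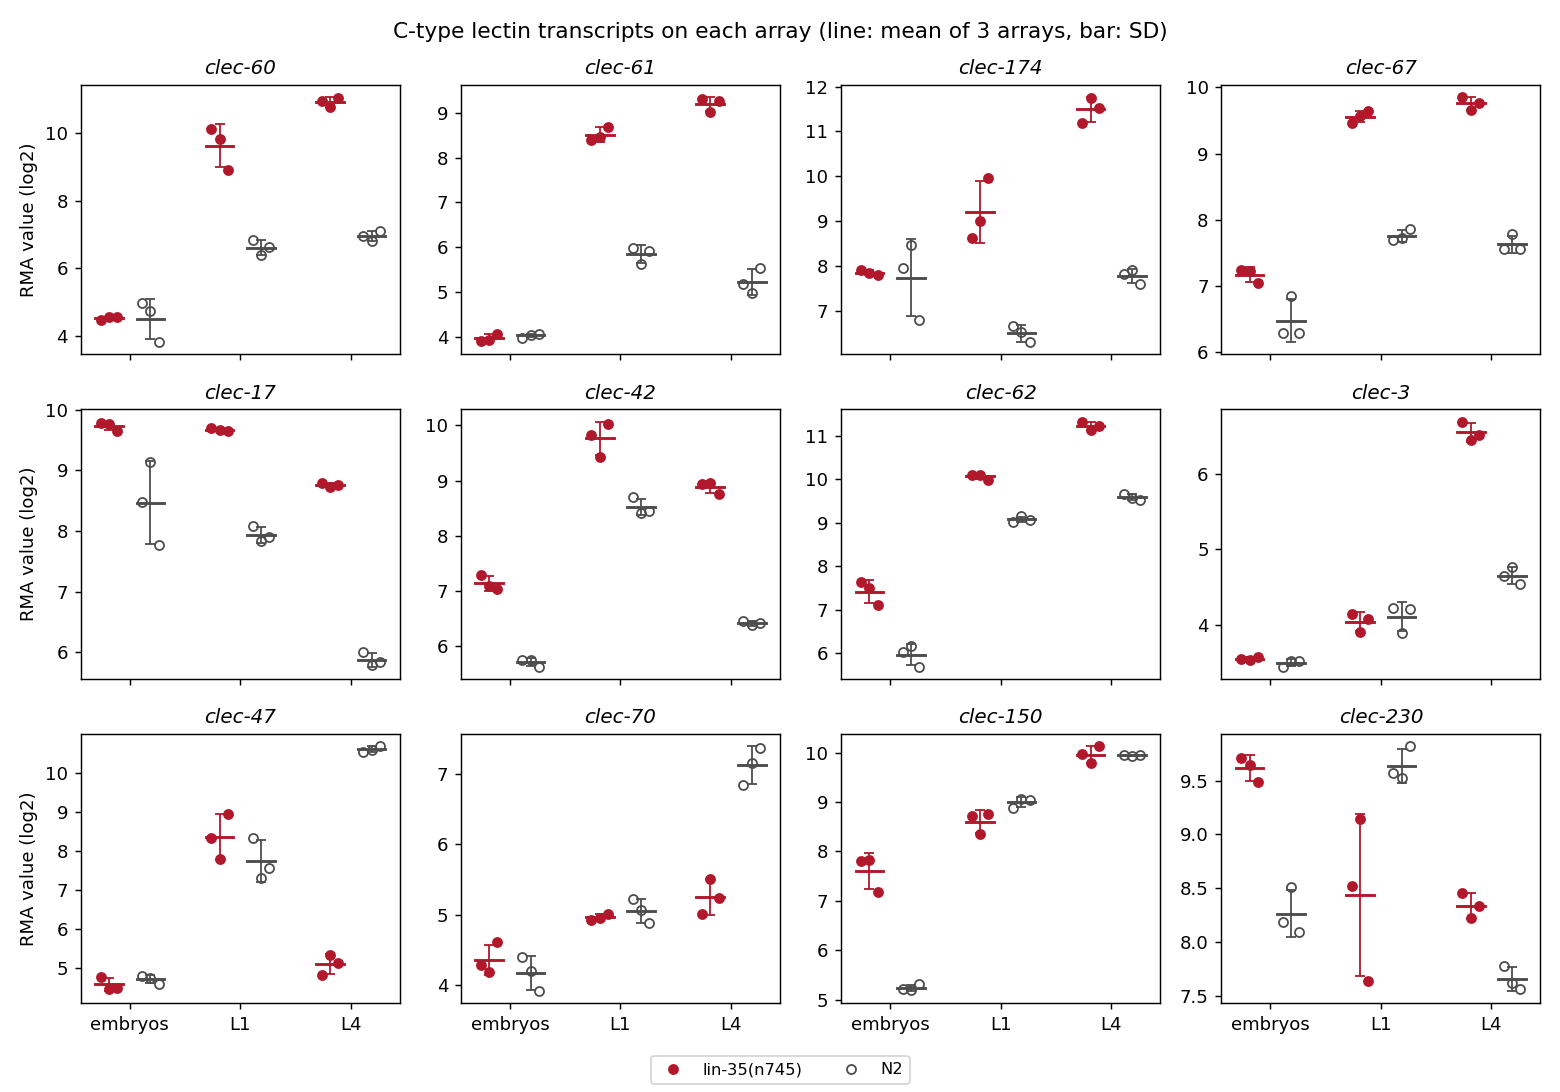
Log2 signal of 12 C-type lectin genes on each of the 18 arrays (points), with the mean of 3 arrays (line) and its SD (bar), by stage and strain. clec-60, clec-61 and clec-174 separate the strains in larvae but not in embryos, clec-47 separates them at L4 alone with lin-35(n745) far below N2, and clec-150 separates them most in embryos.

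A gene higher at L1 was usually higher at L4 too. Of the 14 genes higher at L1, 13 were also higher at L4, which is 92.9% of the L1 genes and 36.1% of the L4 genes, while over all probe sets the shared calls were 48.1% of those higher at L1 and 51.1% of those higher at L4. The exception, clec-12, had 4.91, 5.23 and 5.94 in lin-35(n745) L1 larvae, against 3.93, 4.30 and 4.07 in N2 L1 larvae (1.26 ± 0.18, adjusted p = 4.69e-05), and differed by 0.06 ± 0.18 at L4. Of the genes lower at L1 and at L4, 1 was shared, clec-48, which is 8.33% of the 12 at L1 and 5.88% of the 17 at L4, against 26.7% and 24.7% over all probe sets. Its L1 call (-0.52 ± 0.17, adjusted p = 0.0444) was lost on leaving out any of 13 arrays and with the L1 arrays fitted alone (adjusted p = 0.196), and without lin-35(n745) L1 replicate 2 the difference was -0.24. The share of all probe sets higher at L4 alone is not given here, so the next count cannot be set against the array. The largest class of called genes was the 18 higher at L4 alone. clec-3 led it, with 6.69, 6.45 and 6.51 in lin-35(n745), against 4.64, 4.77 and 4.54 in N2 (1.90 ± 0.11, adjusted p = 6.52e-11), and clec-143 (1.58 ± 0.17), clec-64 (1.40 ± 0.14), clec-82 (1.13 ± 0.20), clec-28 (1.12 ± 0.16) and clec-71 (1.06 ± 0.13) were in it. clec-10 was higher in embryos (0.81 ± 0.20) and at L4 (1.71 ± 0.20), and by its second probe set also at L1 (0.86, adjusted p = 0.00272). clec-44 (0.56 ± 0.10 and 1.68 ± 0.10), clec-76 (0.75 ± 0.13 and 1.36 ± 0.13) and the PMK-1 target clec-85 (0.91 ± 0.17 and 1.49 ± 0.17) were higher at L1 and at L4.

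**Figure D3:**
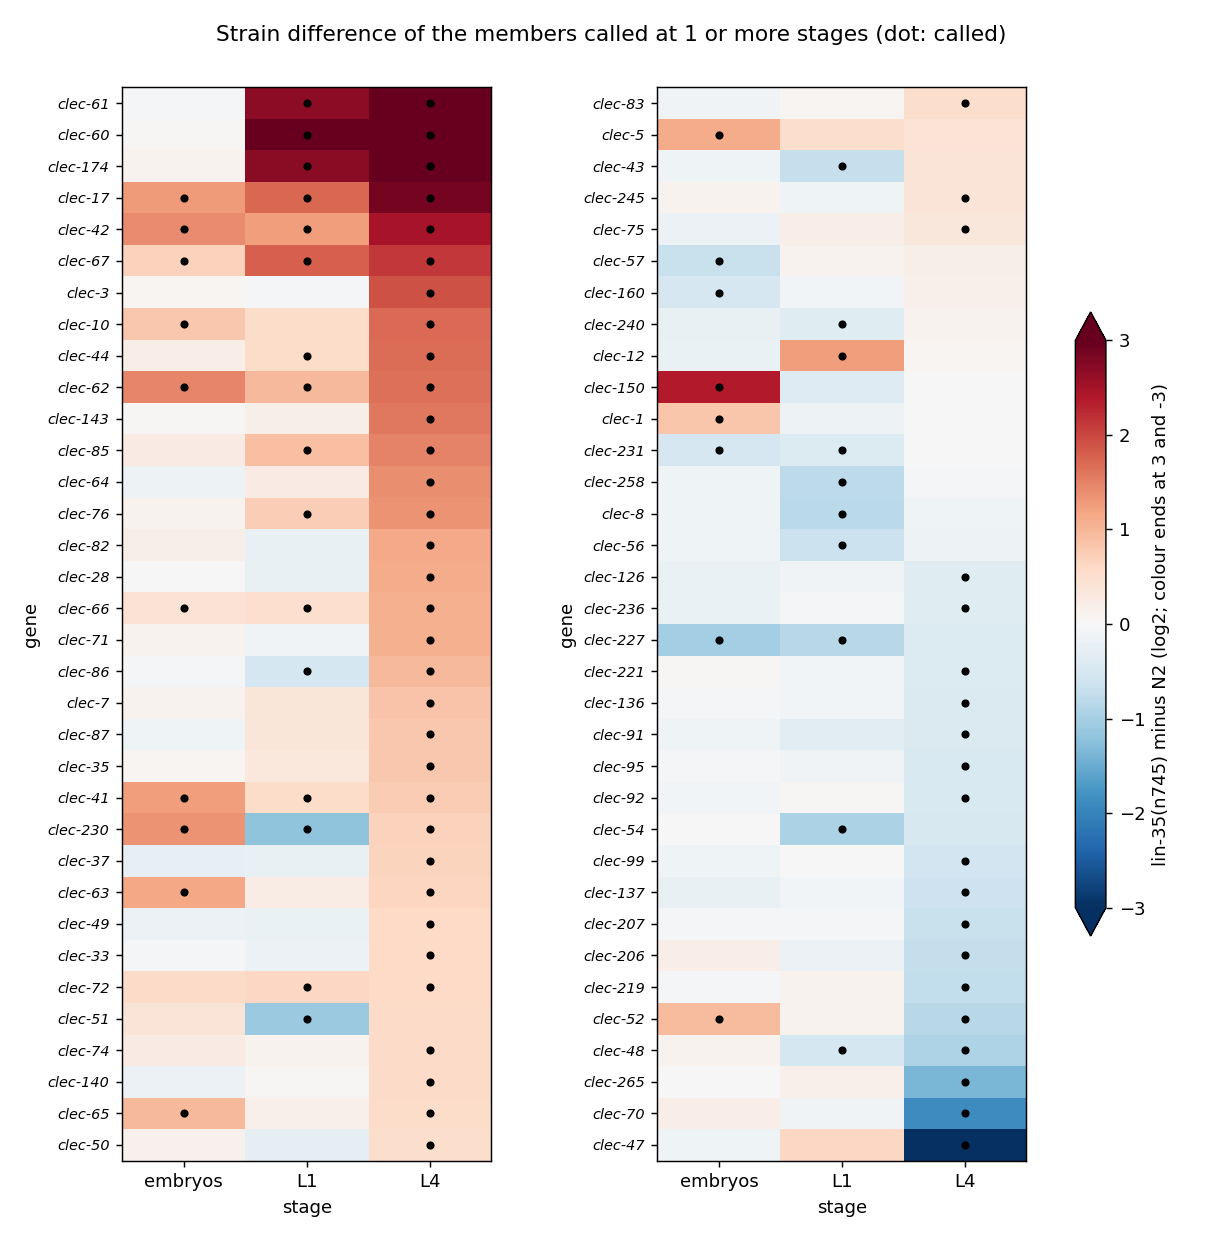
Strain difference (lin-35(n745) minus N2, log2) of the 68 C-type lectin genes called at 1 or more stages, ordered by the difference at L4, with a dot where the gene was called. Red, higher in lin-35(n745), fills most of the left panel at L4, and the colour scale ends at 3 and -3, past which clec-60, clec-61, clec-174 and clec-47 lie.

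One C-type lectin went strongly the other way. clec-47 gave 4.83, 5.33 and 5.13 in lin-35(n745) L4 larvae, against 10.54, 10.59 and 10.68 in N2 L4 larvae, a difference of -5.51 ± 0.23 (adjusted p = 1.92e-12). The mutant values lie close to 5, the cut set here for dim probe sets. RMA gives no means of telling so low a level from background, so the size of this decrease is not exact. At L1 the same probe set gave 8.32, 7.78 and 8.94 in lin-35(n745), against 8.33, 7.32 and 7.56 in N2, where the strains overlapped (0.62 ± 0.23, adjusted p = 0.0852). In embryos all 6 arrays were between 4.46 and 4.78. The transcript was thus lower at L4 than at L1 in lin-35(n745) (-3.25) and higher at L4 than at L1 in N2 (2.87), and its L4 level in the mutant was near that of embryos.

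clec-70, a gene of the response to Staphylococcus aureus, was also lower at L4, with 5.002, 5.51 and 5.24 in lin-35(n745), against 6.85, 7.17 and 7.38 in N2 (-1.88 ± 0.16, adjusted p = 2.08e-08). clec-265 had 8.83, 8.71 and 8.87 in lin-35(n745) L4 larvae, against 10.36, 10.14 and 10.05 in N2 L4 larvae (-1.38 ± 0.14, adjusted p = 4.11e-07). These 3 were the only genes lower at L4 by at least 2-fold. The remaining 14 were smaller differences, led by clec-48 (-0.93 ± 0.17), clec-52 (-0.83 ± 0.15), clec-219 (-0.73 ± 0.15) and clec-206 (-0.72 ± 0.23). clec-207 (-0.67 ± 0.12), clec-137 (-0.62 ± 0.13) and clec-99 (-0.57 ± 0.14) came next. Of the 17 lower genes, 8 were among the 135 that averaged under 5, a class in which 2.93% of all probe sets were lower. The other 9 were among the 85 brighter ones, beside 9.75% of that class. The call of clec-206 (adjusted p = 0.04) was lost on leaving out any L4 array (0.0652 to 0.115). clec-71, which neighbours clec-70 and responds to the same bacterium, moved the opposite way, with 7.13, 7.17 and 7.54 in lin-35(n745), against 6.19, 6.20 and 6.28 in N2.

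Some genes differed in embryos alone or changed direction between stages. clec-150 had 7.80, 7.82 and 7.19 in lin-35(n745) embryos, against 5.21, 5.19 and 5.31 in N2 embryos (2.37 ± 0.14, adjusted p = 4.10e-10), the largest embryonic difference of the family. In L1 larvae it had 8.71, 8.35 and 8.75 in lin-35(n745), against 8.89, 9.07 and 9.04 in N2 (-0.39 ± 0.14, adjusted p = 0.0715), and at L4 the difference was 0.01 ± 0.14. clec-1 (0.83 ± 0.17) and clec-5 (1.11 ± 0.30) were also higher in embryos alone. The call of clec-5 was lost with a robust estimate of the spread (adjusted p = 0.0745), without replicate 1 or 2 of lin-35(n745) embryos (0.0679 and 0.0746), and without replicate 1 or 3 of N2 embryos (0.0597 and 0.0808). clec-57 (-0.66 ± 0.13), clec-231 (-0.51 ± 0.10) and clec-160 (-0.49 ± 0.11) were lower in embryos, clec-160 with arrays of 3.87, 4.07 and 4.21 in lin-35(n745), against 4.55, 4.44 and 4.65 in N2. All 6 of those values are under 5, and the call was lost without lin-35(n745) embryo replicate 1 (adjusted p = 0.0506). clec-227 was lower in embryos (-1.02 ± 0.15) and at L1 (-0.82 ± 0.15), and its mutant arrays lay below its N2 arrays at L4 as well (-0.41 ± 0.15, adjusted p = 0.0716).

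Opposite calls at different stages were made for 3 genes (1.36%, against 0.976% of all probe sets). clec-230 had 9.71, 9.65 and 9.49 in lin-35(n745) embryos, against 8.18, 8.51 and 8.10 in N2 embryos (1.35 ± 0.23, adjusted p = 0.000431). At L1 it had 8.52, 9.15 and 7.64 in lin-35(n745), against 9.57, 9.53 and 9.82 in N2 (-1.20 ± 0.23, adjusted p = 0.000854). At L4 it had 8.46, 8.22 and 8.33 in lin-35(n745), against 7.78, 7.61 and 7.56 in N2 (0.68 ± 0.23, adjusted p = 0.0482). The groups did not overlap at any stage, although the L1 call rested on mutant arrays with an SD of 0.76 and was lost with the L1 arrays fitted alone (adjusted p = 0.052). clec-52 was higher in embryos (0.95 ± 0.15) and lower at L4 (-0.83 ± 0.15), and clec-86 was lower at L1 (-0.54 ± 0.15) and higher at L4 (0.98 ± 0.15). The L1 call of clec-86 was lost without N2 L1 replicate 2 (adjusted p = 0.0968) or replicate 3 (0.0716) and with a replicate block by stage (0.0514).

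The lin-35(n745) L1 arrays varied more than the others in this family. Their SD exceeded 0.5 for 17 of 220 genes, against 2 in N2 L1 larvae, 2 in lin-35(n745) embryos, 5 in N2 embryos and 0 in L4 larvae of each strain. With the L1 arrays fitted alone, 11 genes were higher and 5 lower, against 14 and 12 in the fit of all arrays. The corresponding shares of all probe sets in that fit were 4.77% higher and 2.26% lower. In that fit of L1 alone, clec-258 (-0.79 ± 0.22), clec-8 (-0.81 ± 0.24) and clec-43 (-0.69 ± 0.20) had adjusted p of 0.0715, 0.0788 and 0.0845. Without lin-35(n745) L1 replicate 3, the difference of clec-258 was -0.50. clec-54 (-0.95 ± 0.18), clec-51 (-1.11 ± 0.20) and clec-56 (-0.66 ± 0.10) were lower at L1 as well. clec-51 had 7.89, 7.68 and 6.86 in lin-35(n745) L1 larvae, against 8.61, 8.69 and 8.47 in N2 L1 larvae.

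Whether the strain difference depended on stage was tested by interaction contrasts. It differed between L4 and L1 for 30 C-type lectin genes (13.6%, against 6.72% of all probe sets), of which 23 had the more positive difference at L4 (10.5%, against 3.39%) and 7 the more negative (3.18%, against 3.33%). Between L4 and embryos it differed for 35 (15.9%, against 7.74%), with 26 more positive at L4 (11.8%, against 3.85%) and 9 more negative (4.09%, against 3.90%). Between L1 and embryos it differed for 17 (7.73%, against 9.20%), with 7 more positive at L1 (3.18%, against 4.83%) and 10 more negative (4.55%, against 4.36%). The stage pairs that include L4 share its arrays, so their counts are not separate evidence. The largest contrast between L4 and L1 was that of clec-47 (-6.12 ± 0.33, adjusted p = 2.66e-10). clec-3 (1.97 ± 0.15), clec-230 (1.88 ± 0.32), clec-70 (-1.79 ± 0.22) and clec-51 (1.69 ± 0.28) followed.

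C-type lectin genes lie in runs along the chromosomes, and in some runs most neighbours were called in the same direction. By a rule set after the values were seen, genes with at most 5 other genes between them were joined, which gave 25 runs of 3 or more genes holding 99 of the measured members. On chromosome II, all 5 genes of the run clec-62 to clec-66 were higher at L4, 4 of them in embryos and 2 at L1. clec-63 in this run was higher by 1.15 ± 0.14 in embryos and 0.64 ± 0.14 at L4, and clec-65 by 0.98 ± 0.12 and 0.54 ± 0.12. The second probe set of clec-65 was also higher at L1 (0.46, adjusted p = 0.00881). The run that holds clec-60 and clec-61 has 5 measured genes, of which 3 were higher at L4. On chromosome IV the run clec-67 to clec-78, which includes clec-174 and clec-76, has 12 measured genes, of which 7 were higher at L4 and 1, clec-70, was lower. All 3 measured genes of the run clec-80 to clec-85 were higher at L4. On chromosome V, the run clec-40 to clec-33 has 11 measured genes, of which 4, clec-28 among them, were higher at L4. There too, 2 of the 5 genes of the run clec-57 to clec-55 were lower in embryos and 3 at L1, and 0 were called at L4. Lower at L4 were 2 of the 4 genes of clec-136 to clec-139 on chromosome II and 2 of the 7 of clec-93 to clec-99 on chromosome I. Other runs were quiet: all 8 measured genes of clec-127 to clec-134 on chromosome II were uncalled at each stage. So were all 4 of clec-151 to clec-154 on chromosome III and all 5 of clec-197 to clec-202 on chromosome IV. Probe sets of similar genes can read each other's transcripts, and the part of that in these runs was not tested.

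**Figure D4:**
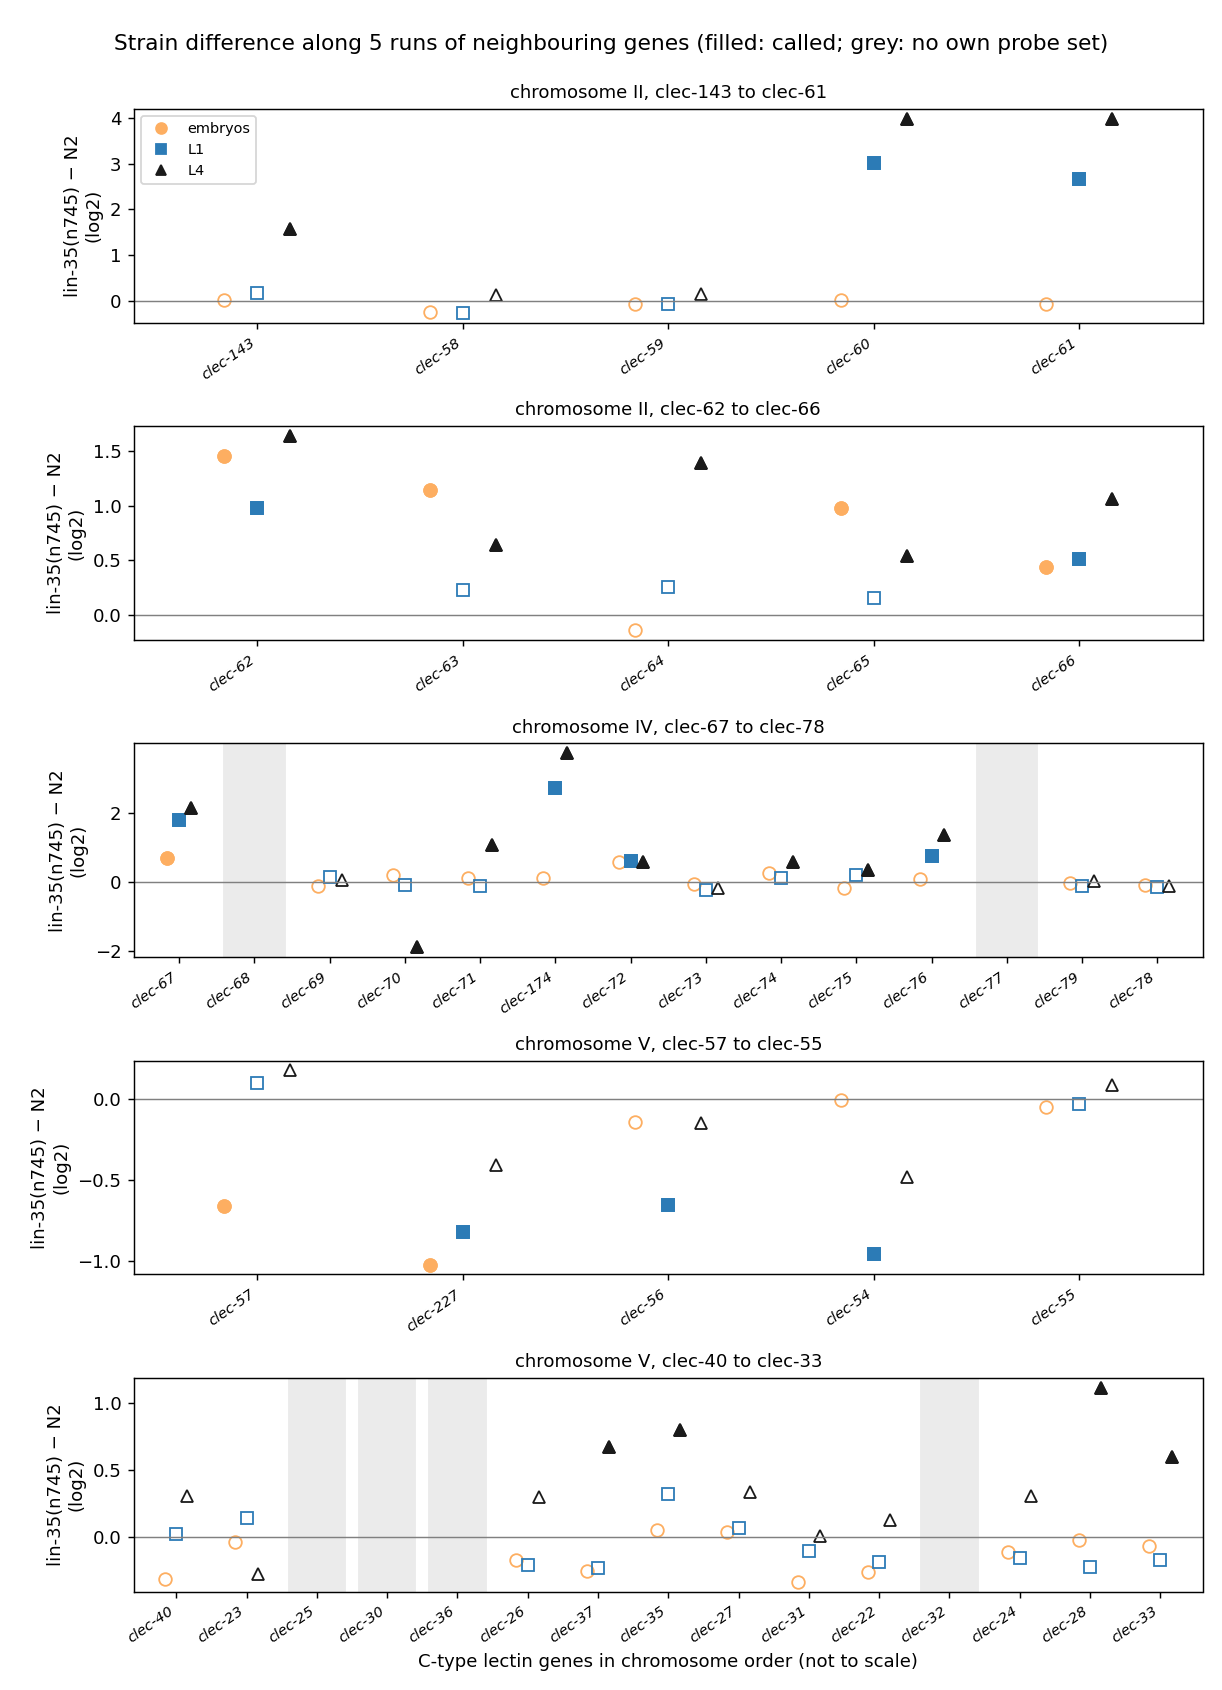
Strain difference (lin-35(n745) minus N2, log2) of the measured genes in 5 runs of neighbouring C-type lectin genes, in chromosome order and not to scale, at each stage, with filled symbols where called and grey where a gene has no probe set of its own. The run clec-62 to clec-66 lies above 0.5 throughout at L4, and clec-70 is the low point of the run clec-67 to clec-78.

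More of the family was called between embryos and L1 larvae than between the strains. In lin-35(n745), 131 of 220 genes were higher at L1 than in embryos (59.5%, against 37.4% of all probe sets) and 10 were lower (4.55%, against 32.9%). In N2 145 were higher (65.9%, against 40.8%) and 12 lower (5.45%, against 33.6%). After a second quantile normalization 93 were higher in lin-35(n745) (42.3%, against 33.5%) and 103 in N2 (46.8%, against 35.1%), and after centring 157 in lin-35(n745) (71.4%, against 44.5%) and 177 in N2 (80.5%, against 49.1%). The median difference of all probe sets in N2 was 0.13 as deposited and 0.25 after centring. Dim probe sets as a class gave higher values at L1, so the counts are best read by level. Among the 85 genes that averaged 5 or more, 72 were higher and 10 lower at L1 in N2, with a median difference of 1.38, while 36.1% of all probe sets of that class were higher, 44% were lower and their median was -0.11. Among the 135 dimmer genes 73 were higher, beside 50.4% of all dim probe sets, and the medians were 0.30 and 0.26.

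Of the increases from embryos to L1 in N2, the largest as read were those of clec-1 (5.24), clec-186 (4.95), clec-258 (4.59), clec-150 (3.76) and clec-63 (3.73). clec-186, for example, had 9.22, 9.15 and 9.04 in N2 L1 larvae, against 4.54, 4.48 and 3.54 in N2 embryos. Where 1 stage is that dim, as here, the size of the difference and its rank are not exact. Against them stood a small embryonic group. clec-266 had 5.75, 5.59 and 5.43 in N2 L1 larvae, against 13.09, 13.31 and 13.36 in N2 embryos (-7.66 ± 0.12). clec-88 (-6.29), clec-87 (-5.54), clec-91 (-5.53) and clec-196 (-4.65) had the next largest decreases. None of these 5 was called between the strains in embryos, where their differences ran from -0.15 for clec-196 to 0.11 for clec-266.

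At L4 relative to L1, lin-35(n745) had 49 genes higher (22.3%, against 19.5% of all probe sets) and 16 lower (7.27%, against 23.7%), and N2 had 35 higher (15.9%, against 21.2%) and 22 lower (10%, against 24%). These stage contrasts share arrays with the strain contrasts. In lin-35(n745) the largest increases were those of clec-88 (2.62), clec-3 (2.51), clec-123 (2.35), clec-86 (2.33) and clec-174 (2.29). The decreases there were led by clec-47 (-3.25), clec-78 (-1.66), clec-265 (-1.43), clec-12 (-1.40) and clec-4 (-1.02). In N2 the largest increases were those of clec-47 (2.87), clec-123 (2.35), clec-70 (2.07), clec-88 (2.003) and clec-91 (1.72), and the largest decreases those of clec-42 (-2.10), clec-17 (-2.06), clec-230 (-1.99), clec-82 (-1.90) and clec-78 (-1.67). clec-123 and clec-88 had the same direction in both strains, and clec-47 had opposite directions.

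**Figure D5:**
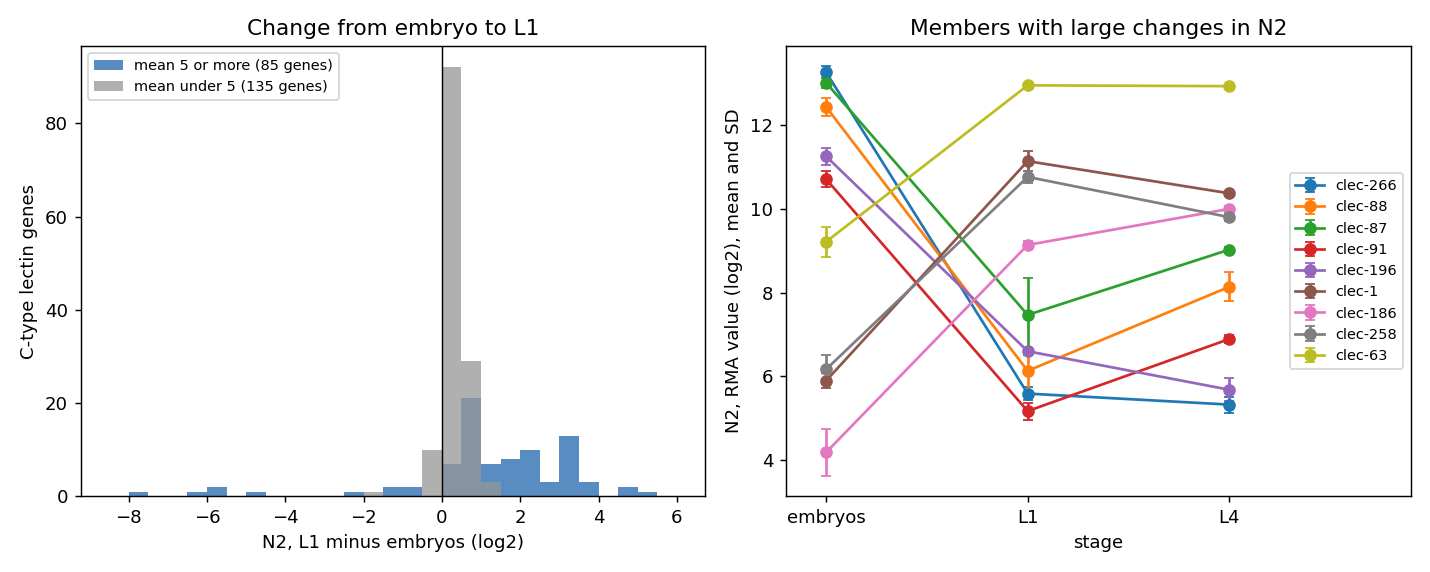
Left, number of C-type lectin genes by N2 difference (L1 minus embryos, log2), for the 85 genes that averaged 5 or more and the 135 that averaged less. Right, log2 signal of 9 genes in N2 at each stage (points are means of 3 arrays and bars SD), where clec-266, clec-88, clec-87, clec-91 and clec-196 are highest in embryos and clec-1, clec-186, clec-258 and clec-63 are higher in larvae.

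Of 19 members listed for a published role, all were measured. clec-38, studied in connection with the netrin receptor UNC-40, was not called at any stage, nor was clec-39, which affects survival on Serratia marcescens (-0.08 ± 0.09 at L4, with levels near 3.4 throughout). clec-49, reported beside clec-39, was higher at L4 (0.61 ± 0.16, adjusted p = 0.0138), a call lost without lin-35(n745) L4 replicate 3 (0.0601) or N2 L4 replicate 1 (0.0659). clec-72 was higher at L1 (0.62 ± 0.19) and L4 (0.59 ± 0.19), with both calls lost in some settings. clec-87 was higher at L4 (0.81 ± 0.25, adjusted p = 0.0314), a call that was also lost in some settings.

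Other families that act at the gut or in defence were counted from lists of genes chosen with earlier results of these data known. The counts stand beside array shares of 5.92% higher and 3.78% lower in embryos, 8.24% and 6.94% at L1, and 7.77% and 7.48% in L4 larvae. Of 13 infection response genes, 7 were higher and 2 lower at L4, 5 higher and 0 lower in embryos and 4 higher and 0 lower at L1. irg-3 averaged 11.17 in lin-35(n745) L4 larvae and 8.34 in N2 L4 larvae (2.83 ± 0.20), and dod-24, dod-20 and dod-22 differed there by 2.74 ± 0.22, 2.68 ± 0.12 and 2.67 ± 0.15. irg-5 led in embryos (2.62 ± 0.14). Of 23 antimicrobial peptide genes, 9 were higher and 0 lower in embryos, 3 and 1 at L1, and 9 and 0 in L4 larvae, with cnc-4 at 1.89 ± 0.41 and nlp-29 at 1.38 ± 0.21 at L4.

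Lysozymes were split, with 3 higher and 4 lower of 16 in embryos, 1 and 2 at L1, and 5 and 3 in L4 larvae. lys-7 was higher at L4 by 2.19 ± 0.21, and lys-4 was lower (-1.41 ± 0.19). Of 18 saposin-like genes, 3 were higher and 1 lower in embryos, 1 and 4 at L1, and 5 and 0 in L4 larvae. Galectins, the other large sugar-binding family, had 6 of 12 higher in embryos, 4 at L1 and 3 at L4, and 0 lower at each stage. lec-6 led them in embryos (1.42 ± 0.12). Of 36 immune signalling genes, 3 were higher and 0 lower in embryos, 5 and 0 at L1, and 8 and 1 in L4 larvae. The adaptor tir-1, which acts upstream of PMK-1, was higher at L4 by 0.63 ± 0.10, the GATA factor elt-2 by 0.58 ± 0.09 and the bZIP factor zip-2 by 0.63 ± 0.17.

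Some tissue markers differed between the strains too. The mean of 13 intestine markers ranged from 9.996 to 10.01 in lin-35(n745) L4 larvae and from 9.72 to 9.82 in N2 L4 larvae, with 3 markers higher (elt-2, ges-1 and lys-1, which is also in the lysozyme list) and 1 lower (nhx-2). At L1 it ranged from 9.56 to 9.74 in lin-35(n745) and from 9.74 to 9.85 in N2, with 1 higher and 4 lower. In embryos it ranged from 8.94 to 9.005 in lin-35(n745) and from 8.82 to 8.87 in N2, with 1 higher and 0 lower. The median strain difference of these 13 markers was -0.08 in embryos, -0.18 at L1 and 0.21 at L4. The largest differences in embryos were those of mtl-1 (1.42, not called) and lys-1 (1.11). Of 7 germline markers, 3 were higher in embryos, 4 were higher and 1 (gld-1, -0.52) lower at L1, and 5 were higher at L4. Their mean ran from 8.62 to 8.78 in lin-35(n745) L1 larvae, against 6.42 to 6.71 in N2 L1 larvae. Of 7 pharyngeal gland markers, 1 was higher and 3 were lower at L1. Sperm markers (7) had 2 lower at L1, vulva and gonad sheath markers (4) 1 higher in embryos, and embryo patterning markers (6) 1 higher at L4. Body muscle, coelomocyte and excretory cell markers had 0 higher and 0 lower at each stage. The part of the marker shifts in the C-type lectin differences was not tested. No marker is at 0, since RMA gives none.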

How the data were processed

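Transcript levels were measured on 18 Affymetrix arrays, 3 for each of 2 strains at 3 stages, grouped by the sample titles. The deposited values were made by the authors with RMA, per the submitters' processing notes, a method of background correction, quantile normalisation and probe summary. No version of it is given in the sources used here. The deposited values were taken as log2: no label states the base, and their range is 2.55 to 15.02 (medians per array, 6.20 to 6.39). Arrays of 1 group correlated at 0.9863 to 0.9973, and 0 pairs were identical. RMA makes no detection call, and precision is limited by the 3 arrays per group.

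Of 22625 probe sets, 77 controls were left out. All 18 arrays entered 1 linear model with a mean per group (limma 3.58.1, R 4.3.3; lmFit and eBayes without trend; 12 residual and 7.66 prior degrees of freedom). Two-sided p-values were adjusted by Benjamini and Hochberg's method over the 22548 probe sets of a contrast. Gene names come from the platform annotation, and all 220 members matched the RefSeq table of assembly WBcel235, used for names, chromosomes and neighbours only, since the array names no build. For the 15 members with several probe sets, 0 were called in opposite directions by 2 of them. At L1 clec-10, clec-65 and clec-88, and at L4 clec-208, were called only by a probe set that was not used.

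The members and gene lists were chosen with earlier results of these data known. The text names, per strain contrast, up to 10 called members from each end of the range of differences. It also names members called in 1 direction at all stages, the 5 largest interactions and the 5 highest and 5 lowest members per stage contrast, with 19 members of published role. Other members are named for their place in a run and were chosen after their values were seen, as were the run rule and the level class at 5. In simulated data for the L1 strain contrast with 200 changed probe sets, 43.3% of changes of 0.5, 94% of 1 and 100% of 2 on the log2 scale were recovered, and 5.39% of calls were false. The simulation gave a probe set the same spread in every group, and none but the 200 a strain difference at L1. The real L1 contrast called 1859 probe sets higher and 1564 lower, and the adjusted p depends on how many change. The simulation therefore covers neither that larger number nor the wider spread of the lin-35(n745) L1 arrays. These rates need not hold for the real L1 calls. Same-numbered arrays of the strains were checked for shared deviations, and the alternatives tried are given in the closing section.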

Additional observations from a re-analysis of the deposited data

Results flagged for a closer look

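The strain difference of each gene named here depended on stage, by the interaction contrast of limma. For each, the difference between strains at the earlier stage was subtracted from that at the later stage, in log2 units.

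Between L1 and embryos the strain difference changed by 2.99 ± 0.36 (SE) for clec-60, 2.73 ± 0.19 for clec-61 and 2.59 ± 0.44 for clec-174. It changed by -2.76 ± 0.20 for clec-150, -2.56 ± 0.32 for clec-230 and -0.85 ± 0.22 for clec-52.

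Between L4 and L1 it changed by -6.12 ± 0.33 for clec-47, -1.79 ± 0.22 for clec-70 and -0.94 ± 0.22 for clec-52. It changed by 1.97 ± 0.15 for clec-3, 1.88 ± 0.32 for clec-230, 1.69 ± 0.28 for clec-51 and 1.52 ± 0.21 for clec-86. The part of the spread of the lin-35(n745) L1 arrays in the values of clec-230 and clec-51 was not tested.

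Between L4 and embryos it changed by 4.03 ± 0.19 for clec-61, 3.94 ± 0.36 for clec-60, 3.61 ± 0.44 for clec-174 and 1.02 ± 0.21 for clec-86. It changed by -5.38 ± 0.33 for clec-47, -2.36 ± 0.20 for clec-150 and -1.78 ± 0.22 for clec-52. The adjusted p was under 0.05 for each of these values, the largest being 0.017 for clec-52 between L1 and embryos. For clec-60, clec-61 and clec-47 every embryo array was under 5, so the sizes of their changes from embryos are not exact.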

How the results depend on the processing

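Up to 29 settings were run: each of 121 gene results was recomputed under 27 to 29 of them, and 0 changed direction. The filter leaves out dim genes, and the block by stage was run for strain and interaction contrasts only. Apart from the 2-fold requirement, 18 gene results lost their call under 1 or more settings and 11 on leaving out an array. Requiring 2-fold gave 8 higher and 1 lower genes in embryos, 7 and 2 at L1, and 18 and 3 in L4 larvae. It gave 8, 19 and 20 interactions for L1 minus embryos, L4 minus L1 and L4 minus embryos. L1 over embryos then had 50 higher in each strain, and L4 over L1 had 19 higher and 5 lower in lin-35(n745) and 10 higher and 9 lower in N2. For these 2-fold interaction and stage counts the shares of all probe sets are not given here. Centring gave 7 lower genes in embryos and 22 at L1, and a second quantile normalization gave 19 lower at L1 than in embryos in lin-35(n745). Genes higher at L1 than in embryos numbered 157 in lin-35(n745) and 177 in N2 after centring, and 93 and 103 after the second quantile normalization. Fitting the compared groups alone gave 5 lower at L1. The causes of these shifts were not tested.

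The filter on dim probe sets, which leaves 48 members, gave 2 lower in embryos, 23 higher and 5 lower at L4, and 16 and 20 interactions for L4 minus L1 and L4 minus embryos. It gave 40 higher at L1 than in embryos in each strain, 19 higher at L4 than at L1 in lin-35(n745), and 17 higher and 12 lower in N2. The shares of all probe sets under this filter are not given here, so these counts cannot be set against the array.

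Leaving out 1 array at a time gave 11 to 16 higher and 3 to 7 lower in embryos, 12 to 18 and 9 to 16 at L1, and 28 to 40 and 10 to 21 at L4. Interactions numbered 14 to 23, 22 to 35 and 24 to 43. In lin-35(n745), L1 over embryos gave 113 to 140 higher and 8 to 11 lower, and L4 over L1 gave 43 to 50 and 12 to 20. In N2 these were 131 to 150 and 11 to 12, and 29 to 38 and 19 to 23.

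Deviations of same-numbered arrays of the strains correlated at -0.052 to 0.27, and those of differently numbered arrays at -0.23 to 0.18. Embryo replicate 1 was the highest of 3 for 107 of 220 members in lin-35(n745) and for 100 in N2. The design text names no batch, and what same-numbered arrays share was not tested. With a replicate block, 16 genes were higher and 4 lower in embryos, 14 and 12 at L1, and 35 and 15 in L4 larvae, and 1 gene result, clec-48 at L1, lost its call (adjusted p = 0.0559). A block by stage, added after the data were seen, gave 35 higher and 16 lower at L4. clec-66 in embryos had an adjusted p of 0.232 without embryo replicate 1 of both strains, clec-57 in embryos (-0.39) 0.0789 with the mean of its probe sets, clec-72 at L4 0.0547 after centring, and clec-87 at L4 0.0522 after the second quantile normalization. For the 135 genes that averaged under 5, a low level cannot be told from background, so a lack of difference cannot be told from a missed one. The cut at 5 was set after the values were seen and is not a measured limit. Of these genes, 5 were called higher at L4.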
